A study of Mus musculus with 26 samples.

Results

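The 9 genes described here handle lipid uptake and cholesterol export: Lpl, Abca1, Abcg1, Apoe, Cd36, Plin2, Srebf1, Srebf2 and Mylip. They were followed through chromatin immunoprecipitation with sequencing (ChIP-seq) of 3 targets in the mouse macrophage cell line RAW264.7. A peak region belonged to a gene if it overlapped the gene's RefSeq span in mm10 plus 1 kb. Intergenic HA and H3K27ac regions within 50 kb were added where the gene was the nearest one. This gave 128 of 166353 merged regions, 37 of 42505 for HA, 26 of 46133 for RNA polymerase II (Pol II) and 65 of 77715 for acetylated histone H3 lysine 27 (H3K27ac). Cells of 2 stable lines carried a doxycycline-inducible construct, either HA-tagged Nur77 or GFP, and all of them were given 50 ng/ml doxycycline for 18 h. They were then left untreated or exposed to 500 ng/ml lipopolysaccharide (LPS) for 1 h. The HA ChIP, made only in the Nur77 line and with 2 mM DSG before 1% formaldehyde, had 3 libraries untreated and 3 after LPS, while Pol II and H3K27ac had 2 libraries in each of the 4 groups of line and treatment. Each construct was carried by 1 line, so the construct and the line cannot be told apart, and p-values measure only the spread between libraries, since the labels do not say that replicates were separate cultures.

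Cd36, a scavenger receptor, and Lpl, the lipase that frees fatty acids from lipoproteins, bring lipid into macrophages. Abca1 and Abcg1 pump cholesterol out onto lipoprotein particles, Apoe is secreted and accepts it, and all 3 are textbook targets of the oxysterol receptors LXR, as are Srebf1 and Mylip, whose product marks lipoprotein receptors for degradation. Plin2 coats lipid droplets, Srebf1 and Srebf2 encode the transcription factors of fatty acid and cholesterol synthesis, and Nur77 (gene Nr4a1) is an orphan nuclear receptor that macrophages induce rapidly after LPS.

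Values are the authors' normalized tag counts per 10 M mapped tags, summed over a region and divided by a scaling factor per library (scaled tags). Libraries held 6.41 to 18.2 M mapped tags for HA, 11.9 to 23.1 M for Pol II and 22.3 to 28.4 M for H3K27ac. Both HA replicate 3 libraries stood apart, with peak widths of 342 and 427 bp where the other 4 had 826 to 1017 bp, and untreated Nur77 Pol II replicate 1 had an estimated fragment length of 1550 bp against 174 to 318 bp in the other 7. Of 10 macrophage genes, 9 had Pol II and 10 had H3K27ac over them in every library. Cd3e, Epcam, Alb, Myod1, Col1a1, Adipoq and Krt5, defining genes of other cell types, had no region of either kind, whereas Gfap and Cdh5 had regions of both kinds. No HA ChIP from GFP cells was analysed here, and 3 HA, 4 Pol II and 8 H3K27ac member regions lay over a region called in input. Testing needed a peak in all libraries of the target. That held for 10 HA, 13 Pol II and 25 H3K27ac member regions, and the others are described by the libraries in which they were called.

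HA regions overlapped the 250 bases before a start in 4 members, and the RefSeq sequence (GRCm38.p6, the mm10 build) of that window is shown for these and for Cd36, whose annotated start had no HA region over it although the gene held the highest HA signal of the members. Each runs 5′ to 3′ on the gene's strand. Capitals mark the nuclear receptor core site AGGTCA and the E-box CACGTG on either strand.
Abca1, chr4:53159896-53160145, minus strand: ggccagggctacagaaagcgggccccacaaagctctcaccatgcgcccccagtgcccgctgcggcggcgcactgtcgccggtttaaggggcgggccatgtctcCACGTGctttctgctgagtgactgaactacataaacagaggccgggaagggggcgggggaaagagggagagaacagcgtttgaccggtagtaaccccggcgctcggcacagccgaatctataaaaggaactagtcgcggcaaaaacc
Apoe, chr7:19699189-19699438, minus strand: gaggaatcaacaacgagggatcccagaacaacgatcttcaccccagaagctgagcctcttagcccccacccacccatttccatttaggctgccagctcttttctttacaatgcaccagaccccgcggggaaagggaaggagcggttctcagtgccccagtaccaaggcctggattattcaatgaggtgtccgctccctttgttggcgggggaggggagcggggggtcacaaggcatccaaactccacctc
Srebf1, chr11:60210472-60210721, minus strand: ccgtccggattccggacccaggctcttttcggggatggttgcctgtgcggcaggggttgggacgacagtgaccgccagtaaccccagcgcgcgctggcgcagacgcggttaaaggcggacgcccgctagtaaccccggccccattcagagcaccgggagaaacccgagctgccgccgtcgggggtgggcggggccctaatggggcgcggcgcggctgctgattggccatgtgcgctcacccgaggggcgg
Srebf2, chr15:82147019-82147268, plus strand: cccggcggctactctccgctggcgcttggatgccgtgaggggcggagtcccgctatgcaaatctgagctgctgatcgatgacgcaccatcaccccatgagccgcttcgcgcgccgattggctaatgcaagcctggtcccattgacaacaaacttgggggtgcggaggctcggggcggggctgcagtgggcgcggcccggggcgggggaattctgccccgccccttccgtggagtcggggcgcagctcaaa
Cd36, chr5:17835897-17836146, minus strand: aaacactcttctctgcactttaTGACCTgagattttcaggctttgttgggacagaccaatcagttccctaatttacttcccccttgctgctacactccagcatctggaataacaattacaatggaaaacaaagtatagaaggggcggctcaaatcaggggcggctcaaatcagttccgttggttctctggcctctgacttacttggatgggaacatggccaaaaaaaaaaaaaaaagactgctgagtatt

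A set of 5 motifs was searched on both strands of these windows. The NBRE AAAGGTCA, the monomer site of Nur77, contains the core site AGGTCA and was in none of the 11 windows that 7 of the 9 members have in the table. It was in 1.34% of the 32851 windows of that length in the table. The core site itself was in the Cd36 window above, 228 bases before the start, and in the Plin2 window, 218 bases before it, and in 14% of all windows. An E-box was in the Abca1 window, 147 bases before the start, and in 6.02% of all windows. AP-1 sites (TGANTCA, 6.75% of all windows) and the sterol response element (TCACNCCAC, 1.05%) were in none of the 11. These are matches of letters in the windows only; HA regions away from gene starts were not searched.

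Among the members, HA-Nur77 signal was highest inside Cd36, where untreated and LPS libraries overlapped. In these bulk samples a change in the share of cells and a change in signal per cell cannot be told apart. The highest member region, chr5:17876384-17877400, lay within the Cd36 span, 41.0 kb upstream of the annotated start shown above. It held 555, 391 and 610 scaled tags in untreated replicates 1 to 3, and 547, 317 and 502 after LPS. The 2 groups overlapped. By mean signal it was 47th of the 11234 HA regions with a peak in every library. A second tested Cd36 region, chr5:17856971-17857987, held 147, 178 and 71.5 untreated and 160, 237 and 123 after LPS, higher after LPS within each replicate number. Cd36 had 8 HA regions in all, and 4 further ones carried over 100 scaled tags in part of the libraries. Of these, the region at chr5:17841800-17842816 was called in all libraries but LPS replicate 2 and that at chr5:17839323-17840149 only in untreated replicate 3 and LPS replicates 2 and 3. A region 44.2 kb upstream of the start, chr5:17879585-17880601, held 294 and 167 scaled tags in untreated replicates 2 and 3 and 331 and 144 in LPS replicates 2 and 3, with no peak in either replicate 1.

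At Lpl no HA region had a peak in every library. The region inside the gene, chr8:68886454-68887334, had no peak in any untreated library and 15.7, 17.9 and 25.0 scaled tags in LPS replicates 1 to 3. It was the only one of 37 member HA regions with a peak in every LPS library and in no untreated one, a pattern found in 4.62% of all 42505 HA regions. The reverse change of calls occurred 7267 bp beyond the gene, at chr8:68914199-68915262, with 29.4, 68.1 and 19.9 scaled tags untreated and a peak of 22.9 in LPS replicate 2 only. Both Lpl regions are weak, and a region without a call may hold tags below the threshold. Mylip had 1 tested region, chr13:45397145-45398542, at 25.0 to 35.3 scaled tags in all 6 libraries.

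Among the export genes, Abca1 carried HA at 3 tested places. Inside the gene, chr4:53120021-53121037 held 149, 136 and 142 scaled tags untreated and 221, 214 and 182 after LPS, so the LPS libraries lay above the untreated ones without overlap. Upstream, at chr4:53181198-53182214, the values were 30.0, 54.7 and 17.4 untreated and 49.5, 74.3 and 40.8 after LPS, overlapping between groups but higher in each replicate number. A weaker tested region, chr4:53149318-53150369, held 21.2 to 36.5 in all 6 libraries. Over the Abca1 start, chr4:53159740-53160616 was called with 35.3, 41.0 and 29.5 scaled tags in the LPS libraries and in untreated replicate 3 alone, with 19.9. At Apoe, chr7:19699256-19700272 held 62.9, 107 and 56.9 scaled tags untreated and 23.4, 61.1 and 20.2 after LPS, lower within each replicate number, with overlap through LPS replicate 2. The single tested Abcg1 region, chr17:31038056-31039072, was intergenic, 18622 bp from the gene and over an input region. It held 45.8, 93.6 and 69.1 untreated and 53.8, 120 and 80.7 after LPS.

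Plin2 had its strongest HA region at chr4:86671499-86672515, 1282 bp outside the gene and over an input region, with 173, 92.4 and 190 scaled tags untreated and 183, 88.9 and 180 after LPS. A second one, chr4:86689860-86690940, held 39.4, 47.4 and 52.8 untreated and 60.9, 58.4 and 58.8 after LPS, without overlap. Srebf1 and Srebf2 had no tested HA region. The one over the Srebf1 start was called in 2 of 6 libraries, at 19.4 and 14.0 scaled tags, and that over the Srebf2 start, which overlaps an input region, in 4 of 6, at 19.9 to 32.7. A region inside Srebf2, chr15:82165121-82165997, was called in all LPS libraries, at 56.0, 20.1 and 56.2, and in untreated replicate 3 at 36.7.

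**Figure D1:**
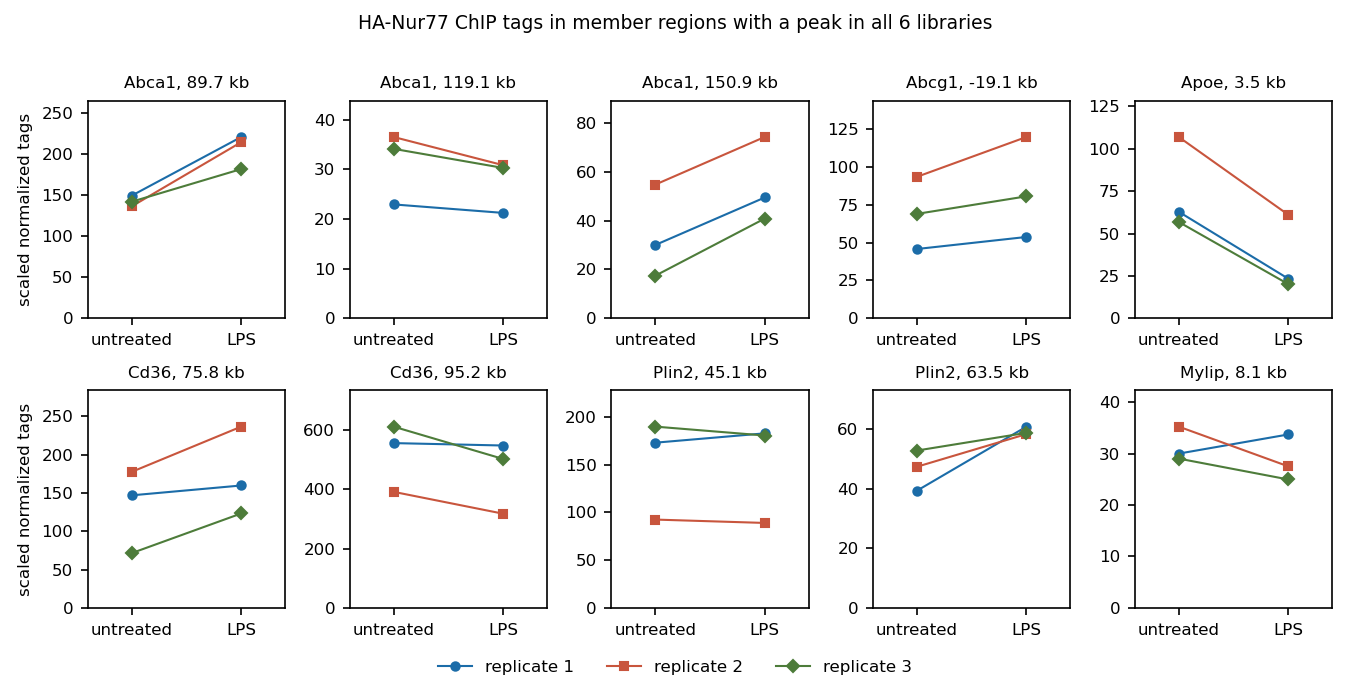
Scaled HA tags in untreated and LPS-treated HA-Nur77 cells for the 10 tested member regions; the title gives the gene and the distance of the region's centre in kb from the low-coordinate end of the gene span, and each line joins libraries of one replicate number. Lines fall in all 3 pairs at Apoe, Abca1 119.1 kb and Cd36 95.2 kb and rise in all 3 at Abca1 89.7 kb, Abca1 150.9 kb, Cd36 75.8 kb, Abcg1 and Plin2 63.5 kb; Cd36 95.2 kb has the highest values, from 317 to 610.

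None of the 10 tested HA regions passed an adjusted p of 0.05 for LPS against untreated (limma, Benjamini-Hochberg over 11234 regions, of which 4.64% passed, 3.28% higher and 1.35% lower after LPS), and 1 of the 10 had an unadjusted p under 0.05, against 20.8% of all regions. The largest difference, at Apoe, was -1.21 ± 0.42 on the log2 scale (SE, n = 3 against 3; adjusted p = 0.131). With the replicate number as a block, 4 of the 10 passed, 3 higher and 1 lower, against 40.4% of all regions (20.4% higher, 20.0% lower). In that blocked fit of all 6 libraries, Apoe was lower (adjusted p = 7.7e-07). Abca1 53120021 was higher by 0.52 (5.5e-04), Abca1 53181198 by 0.77 (0.00108) and Cd36 17856971 by 0.44 (0.00686). In the unblocked fit without LPS replicate 2, the library that overlapped the untreated ones, the Apoe change was -1.69 and passed, as did 595 of all 11234 regions. Unblocked fits without untreated replicate 1 or LPS replicate 1 called none of the 11234. Without both replicate 3 libraries, the blocked change was -1.13 (adjusted p = 1.66e-06) at Apoe and 0.58 (0.00103) at Abca1 53120021. That blocked fit called 3792 of all 11234 regions. The unblocked fit without these libraries called none of the 11234 regions, so no member could pass there. All 10 tested HA regions lay over an H3K27ac region and a Pol II region, as did 92.3% and 81.0% of the HA regions with a peak in every library genome-wide.

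Pol II at the Abcg1 start fell after LPS in both lines, and Pol II over Cd36, Plin2 and a distal Abca1 region rose after LPS in the Nur77 line. In GFP cells 3 of the 13 tested member regions passed (1 higher, 2 lower), against 18.6% of all 17081 Pol II regions (10.0% higher, 8.55% lower). In Nur77 cells 8 of 13 passed (5 higher, 3 lower), against 30.2% (15.2% and 15.0%). The median log2 change of the 13 was -0.01 in GFP cells and 0.28 in Nur77 cells, and that of all regions 0.01 in both. Region sums depend on how much of a region was called as a peak, so tags per kb of called peak, and the mean length called in each group, are given beside those that passed.

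At the Abcg1 start, chr17:31056767-31063832 held 389 and 523 scaled tags in untreated GFP cells and 128 and 165 after LPS, and 331 and 439 in untreated Nur77 cells and 102 and 145 after LPS. No LPS library reached an untreated one. The change was -1.63 ± 0.26 (SE, n = 2 against 2; adjusted p = 0.00542) in GFP cells and -1.64 ± 0.26 (0.00347) in Nur77 cells. Covered length fell from 6.40 to 4.08 kb and from 5.26 to 3.21 kb, and tags per kb changed by -0.96 (0.034) and -1.12 (0.0107) on the log2 scale. The call held in each of the 8 fits without 1 library in both lines. H3K27ac over the same gene (chr17:31057161-31080591) fell by 0.23 on the log2 scale (adjusted p = 0.0197) in GFP cells and by 0.42 (4.2e-04) in Nur77 cells. Per kb the changes were -0.33 (0.0351) and -0.39 (0.014). The GFP call was lost without either untreated GFP library (-0.23, 0.0803 and 0.0738) and without GFP LPS replicate 2 (-0.14, 0.132).

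Abca1 had 2 tested Pol II regions. The distal one, chr4:53118306-53123019, contains the strongest Abca1 HA region and overlaps an input region. It held 73.9 and 71.2 scaled tags in untreated GFP cells, 95.7 and 157 after LPS, 94.3 and 98.3 in untreated Nur77 cells and 296 and 240 after LPS. The rise in Nur77 cells was 1.46 ± 0.27 (adjusted p = 0.00653), with 2.94 and 3.96 kb called (per kb 0.77, 0.0455), and held in each fit without 1 library. In GFP cells it was 0.75 ± 0.27 (0.0994, and 0.0439 with the replicate block), and per kb 0.20 (0.686). The region over the start, chr4:53151941-53160963, did not pass for LPS in either line (-0.47 in GFP and 0.44 in Nur77 cells). Apoe Pol II, shared with the neighbouring Tomm40, was called in 5 of 8 libraries with 9.08 to 157 scaled tags and was not tested.

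Cd36 had 3 tested Pol II regions, and the largest, chr5:17835325-17850935, spans the annotated start. It held 900 and 572 scaled tags in untreated GFP cells and 748 and 641 after LPS, and 535 and 443 in untreated Nur77 cells and 1117 and 1022 after LPS. In the Nur77 line the LPS libraries lay above both untreated ones, and in the GFP line the groups overlapped. The change was 1.13 ± 0.23 (adjusted p = 0.00869) in Nur77 cells and -0.05 ± 0.23 (0.907) in GFP cells. In Nur77 cells 12.2 and 12.8 kb were called, per kb the change was 0.80 (0.0462), and without untreated Nur77 replicate 2 its adjusted p was 0.0668. The distal region with the strongest HA peak, chr5:17875323-17882166, held 23.1 and 25.0 then 25.1 and 85.9 in GFP cells, and 56.0 and 112 then 256 and 338 in Nur77 cells, a change of 1.88 ± 0.56 (0.039) in the latter, with 4.02 and 6.5 kb called (per kb 0.91, 0.0383). That call was lost in 5 of 8 fits without 1 library (GFP untreated replicate 2 and each Nur77 library), with adjusted p up to 0.193, which was the value without untreated replicate 1 of the Nur77 line, the library with the long fragment estimate.

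Plin2 Pol II (chr4:86651339-86673987, partly over input) rose in Nur77 cells, from 670 and 377 to 1653 and 1115 scaled tags (1.43 ± 0.39, adjusted p = 0.0263). In GFP cells the values were 1261 and 678 untreated and 1395 and 967 after LPS (0.33 ± 0.39, 0.606). Covered length in Nur77 cells went from 10.4 to 18.4 kb, and per kb the change was 0.35 (0.611). The call was lost without untreated Nur77 replicate 2 (1.02, 0.159) and without Nur77 LPS replicate 1 (1.17, 0.128).

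The sterol regulators moved in opposite directions. Srebf2 Pol II at the start (chr15:82145603-82150012, partly over input) went from 169 and 202 to 303 and 345 scaled tags in GFP cells (0.81 ± 0.22, adjusted p = 0.0398) and from 164 and 201 to 288 and 401 in Nur77 cells (0.90 ± 0.22, 0.0184). Mean called length went from 2.28 to 3.13 kb and from 3.11 to 3.28 kb. Per kb it passed in neither line (0.35, 0.354, and 0.62, 0.0581), and with the block in Nur77 cells alone (0.0235). Srebf1 Pol II over an upstream start (chr11:60216270-60224759) went from 479 and 604 to 344 and 363 in GFP cells (-0.60 ± 0.19, 0.0675, and 0.00592 with the block) and from 563 and 707 to 302 and 374 in Nur77 cells (-0.91 ± 0.19, 0.011). There 6.17 and 5.72 kb were called in GFP cells and 7.17 and 5.23 kb in Nur77 cells, and per kb it passed in neither line (-0.42, 0.378, and -0.69, 0.098), and with the block in Nur77 cells alone (0.0315). A second Srebf1 region, chr11:60205069-60211763, lies over a downstream start. It fell by 1.90 on the log2 scale in GFP cells (adjusted p = 0.0495) and by 2.20 in Nur77 cells (0.0207), with covered length going from 2.63 to 0.839 kb and from 5.96 to 1.10 kb, and per kb it did not pass (-0.35, 0.489, and -0.03, 0.957).

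These Srebf calls depended on single libraries. In Nur77 cells, Srebf1 60216270 lost its call without untreated replicate 2 (-0.74, adjusted p = 0.0877) and LPS replicate 1 (-0.73, 0.0645). Srebf1 60205069 lost it without untreated replicate 2 (-1.68, 0.136) and either LPS library (-1.96, 0.0963, and -2.43, 0.054). Srebf2 lost it without either untreated library (0.76, 0.11, and 1.05, 0.0526) and LPS replicate 2 (0.66, 0.0959). In GFP cells, the Srebf2 call was lost in 6 of 8 such fits, with 0.68 (0.158) at the lowest without untreated GFP replicate 1, and that of Srebf1 60205069 in 7 of 8, with -1.21 (0.233) without untreated GFP replicate 2. Lpl and Mylip Pol II did not pass for LPS in either line. At Lpl (chr8:68879708-68888272) the values were 231 and 174 then 227 and 397 in GFP cells, and 119 and 145 then 62.3 and 80.0 in Nur77 cells, where the change of -0.88 ± 0.31 had an adjusted p of 0.0649, and 0.022 with the block (per kb -0.77, 0.0594, and 0.0235 with the block). A second Abcg1 region, chr17:31066404-31068406, held 16.6 to 38.6 scaled tags in the 8 libraries and did not pass for LPS in either line. With the block, 5 of 13 member regions passed in GFP cells and 9 of 13 in Nur77 cells, against 35.5% (18.3% higher, 17.2% lower) and 47.9% (24.3% higher, 23.6% lower) of all regions.

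**Figure D2:**
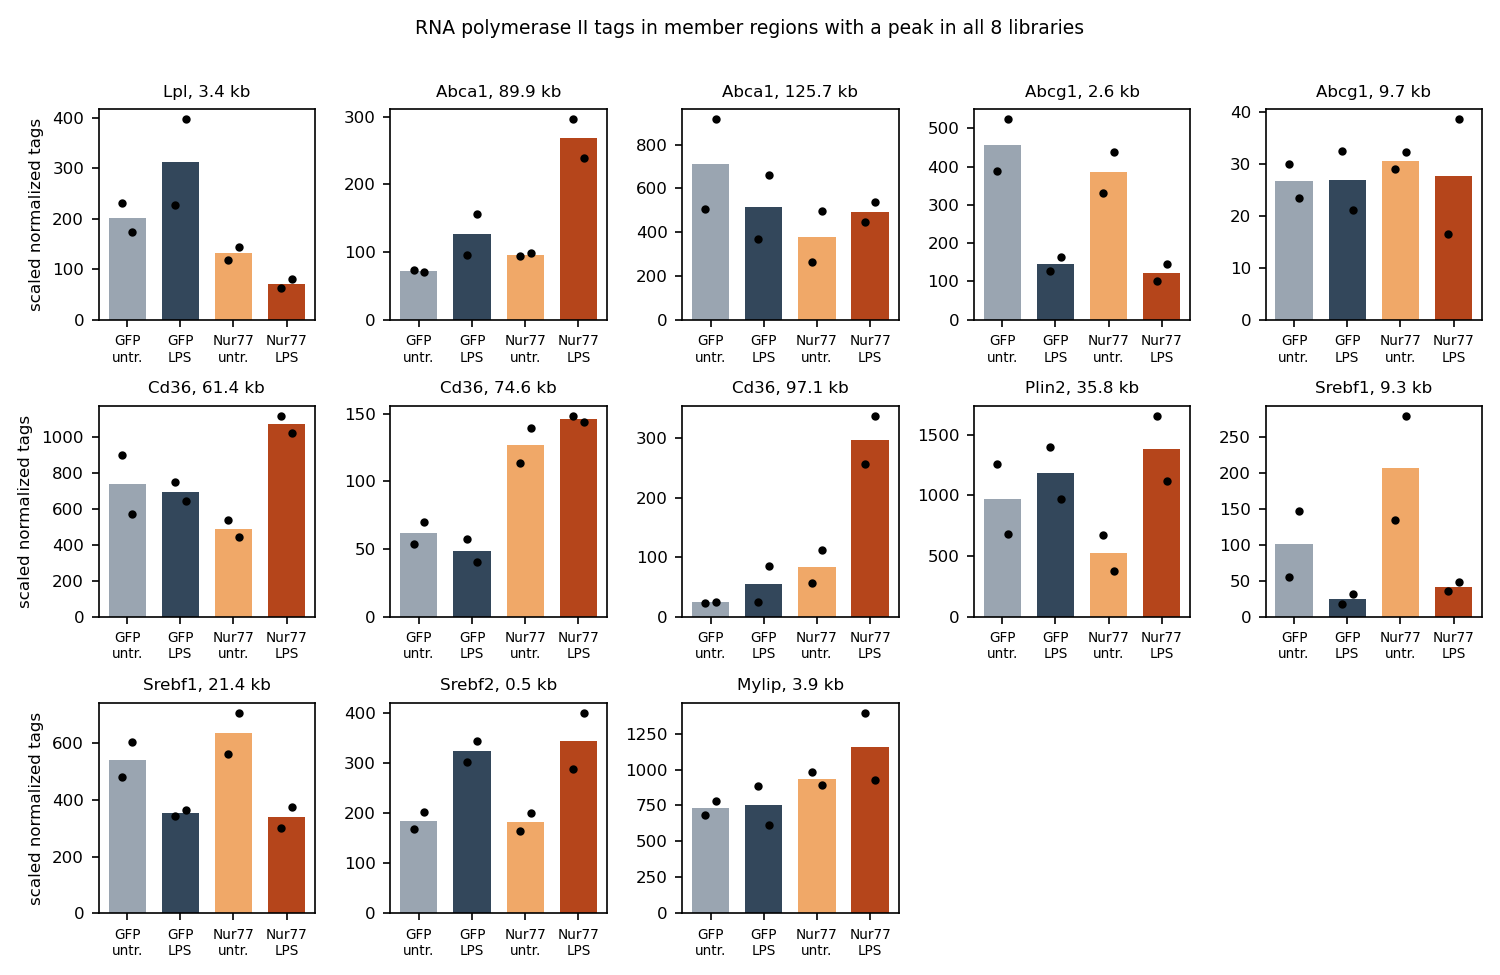
Scaled Pol II tags in the 13 tested member regions, titled by gene and distance in kb from the low-coordinate end of the gene span; bars are means of 2 libraries and dots the libraries. Abcg1 2.6 kb is lower after LPS in both lines, Cd36 97.1 kb is highest in Nur77 cells after LPS at 256 and 338, and Lpl 3.4 kb is lowest there at 62.3 and 80.0.

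After LPS, H3K27ac rose beside Plin2, over Srebf2 and in distal parts of Cd36 and Abca1 in both lines, and fell over Srebf1, Mylip and Abcg1. Blocked and unblocked counts of members were the same (blocked, 27.6% of all regions were higher in GFP cells). In GFP cells 12 of 25 tested member regions passed (9 higher, 3 lower), against 53.0% of all 27094 regions (27.5% higher, 25.5% lower). In Nur77 cells 15 of 25 passed (9 higher, 6 lower), against 55.6% (28.5% higher, 27.1% lower). The shares that passed in either direction were near those of all regions. Their median log2 change was 0.23 and 0.42, against 0.01 and 0.02 over all regions.

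An intergenic region, chr4:86683746-86692342, lay 13529 bp upstream of Plin2. It held 429 and 412 scaled tags in untreated GFP cells and 1048 and 965 after LPS. In Nur77 cells it held 306 and 317 untreated and 1045 and 925 after LPS. The change was 1.26 ± 0.07 (adjusted p = 7.7e-08) and 1.66 ± 0.07 (1.2e-08), and 1.16 and 1.17 per kb. It contains the second Plin2 HA region. H3K27ac over the gene itself (chr4:86652407-86682199) rose by 0.32 (adjusted p = 9.2e-04) and 0.63 (4.8e-06), and the first of these was -0.01 without scaling. Per kb neither passed (0.24, 0.117, and 0.25, 0.0903).

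Srebf1 H3K27ac (chr11:60206730-60224246) fell from 794 and 760 to 481 and 450 scaled tags in GFP cells (-0.74 ± 0.06, adjusted p = 1.5e-06) and from 998 and 1032 to 503 and 527 in Nur77 cells (-0.98 ± 0.06, 1.6e-07). Srebf2 H3K27ac (chr15:82143868-82151721) rose from 315 and 279 to 498 and 478 (0.72 ± 0.07, 6.2e-06) and from 340 and 350 to 555 and 565 (0.70 ± 0.07, 7.1e-06). The pair thus moved apart in H3K27ac, as in the summed Pol II tags. For H3K27ac both directions also passed per kb (-0.53 and -0.54 for Srebf1, 0.55 and 0.62 for Srebf2). No unblocked Pol II change of the pair passed per kb, and their Pol II calls depended on single libraries. Mylip H3K27ac (chr13:45389176-45403446) fell from 635 and 629 to 408 and 357 (-0.73 ± 0.08, 1.2e-05) and from 771 and 813 to 561 and 500 (-0.58 ± 0.08, 6.7e-05; per kb -0.54 and -0.40, which passed), while its Pol II change was 0.02 ± 0.24 and 0.28 ± 0.24.

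At Cd36 the distal region under the strongest HA peak, chr5:17873324-17882369, rose from 237 and 221 to 406 and 383 scaled tags in GFP cells (0.78 ± 0.07, adjusted p = 1.8e-06) and from 483 and 504 to 772 and 810 in Nur77 cells (0.68 ± 0.07, 5.4e-06). Both LPS groups lay above their untreated groups, and per kb the rises were 0.54 and 0.64. The region around the annotated start, chr5:17829073-17852198, changed by 0.18 ± 0.06 and 0.42 ± 0.06, and the first of these was -0.15 without scaling and lost without the first library of either GFP group and without either Nur77 LPS library, with an adjusted p up to 0.189. Per kb neither passed (0.01, 0.954, and 0.26, 0.055). Downstream of it, chr5:17814344-17826461 went from 132 and 144 to 223 and 211 in Nur77 cells (0.65 ± 0.11, 2.5e-04; per kb 0.32, 0.0526) and changed by 0.11 (0.425) in GFP cells. A weak region, chr5:17862365-17864728, rose by 0.65 (0.0132) in GFP and 0.68 (0.00962) in Nur77 cells, also per kb (0.62 and 0.36), and each call was lost without either of 2 libraries (replicate 1 of both GFP groups, and untreated replicate 2 and LPS replicate 1 of the Nur77 line), with up to 0.0861 and 0.0942.

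At Abca1 the distal region (chr4:53114493-53123240) rose by 0.43 and 0.67 and an intergenic one (chr4:53179210-53183013) by 0.57 and 0.60. Per kb these were 0.23 (0.166) and 0.41 (0.0159) for the distal region and 0.35 (0.0485) and 0.47 (0.0109) for the intergenic one. The distal GFP call was also lost without GFP LPS replicate 1 (0.24, 0.0604). H3K27ac over the Abca1 start (chr4:53157608-53160729) changed by -0.21 in GFP cells, which did not pass, and by -0.38 ± 0.12 (0.0186) in Nur77 cells, lost without untreated replicate 1 (-0.30, 0.136) or LPS replicate 2 (-0.24, 0.136) of that line. Within Abcg1, weak H3K27ac at chr17:31086588-31090404 changed by -1.36 ± 0.44 (0.0189) in Nur77 cells, but per kb by 0.13 (0.399), and the call was lost without replicate 2 of either Nur77 group (up to 0.0977). Apoe H3K27ac, shared with Tomm40, was called in all 4 untreated libraries at 41.8 to 62.9 scaled tags and after LPS in replicate 2 of each line only, at 14.2 in GFP and 11.3 in Nur77 cells. The other 10 tested member regions did not pass in either line: Lpl 68902633 and 68910341, Abca1 53148442, Abcg1 31033148, 31081093 and 31109323, Cd36 17852853, Plin2 86624365 and 86645022, and Srebf2 82162652. Of these, 3 passed per kb in 1 line, Abca1 53148442 (0.48, 0.00775) and Abcg1 31033148 (0.31, 0.0485) in Nur77 cells and Plin2 86645022 (0.41, 0.04) in GFP cells. Of the untested member regions, 7 HA, 4 Pol II and 17 H3K27ac regions were called in 1 library only.

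**Figure D3:**
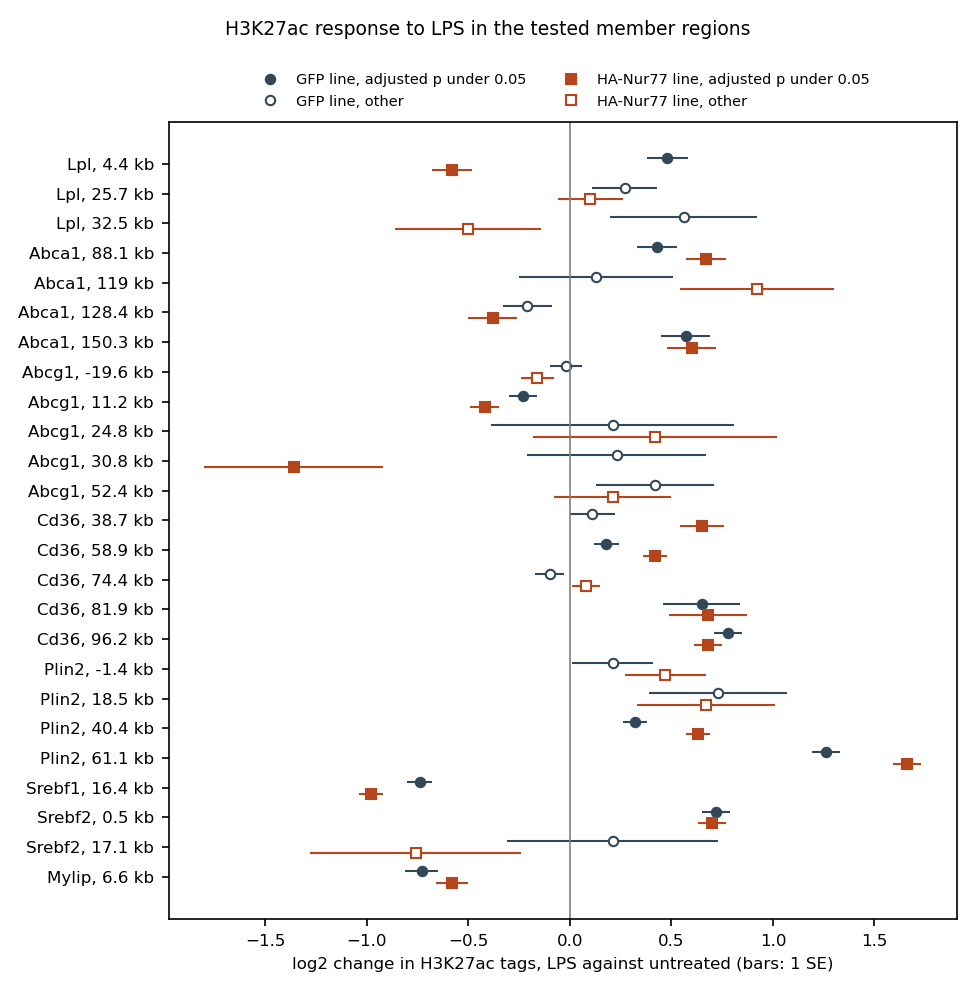
Log2 change of H3K27ac tags after LPS in the GFP line (circles) and the HA-Nur77 line (squares) for the 25 tested member regions, labelled by gene and kb from the low-coordinate end of the gene span; bars are 1 SE and filled symbols have an adjusted p under 0.05. Plin2 61.1 kb lies furthest right at 1.26 and 1.66, and Lpl 4.4 kb has filled symbols on opposite sides of 0, at 0.48 and -0.58.

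Between the lines, Lpl was lower and Cd36 upstream of its annotated start higher in Nur77 cells. In untreated cells no member Pol II region differed, against 0.170% of all regions (0.111% higher, 0.0585% lower), and 3 of 13 had an unadjusted p under 0.05, against 12.0% of all. After LPS 2 of 13 differed, against 1.52% (0.872% higher, 0.650% lower in Nur77 cells). Lpl was lower in Nur77 cells by -2.07 ± 0.31 (adjusted p = 0.0351), with 3.13 kb called against 6.28 kb (per kb -1.18, 0.0789), and Cd36 chr5:17853710-17858779 was higher, at 148 and 144 scaled tags against 57.0 and 40.1 (1.59 ± 0.28, 0.0467). Covered length of that Cd36 region was 4.24 kb in Nur77 and 1.38 kb in GFP cells, and per kb the difference was -0.09 (0.96). Both calls were fragile. The Lpl call was lost in 6 of 8 fits without 1 library, that is without any LPS library or untreated Nur77 library, at adjusted p from 0.0707 to 0.183. The Cd36 call was lost in all 8, at 0.057 to 0.208. Without GFP LPS replicate 2 or any Nur77 library, no Pol II region of all 17081 passed for this comparison.

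With the replicate block, 3 of 13 member Pol II regions differed in untreated cells, against 5.98% of all (2.71% higher, 3.27% lower). Abca1 53151941 was at -0.91 (adjusted p = 0.0239), Plin2 at -0.88 (0.0137) and Cd36 17875323 at 1.68 (0.0382). After LPS 5 of 13 differed, against 12.8% (6.48% higher, 6.29% lower). They were the 2 above, Abca1 53118306 at 1.11 (0.0247), Cd36 17835325 at 0.63 (0.0294) and Cd36 17875323 at 2.63 (0.00603). Per kb with the block, none of the untreated differences passed (adjusted p 0.441 to 0.886), and after LPS Lpl (0.0133), Abca1 53118306 (0.0391) and Cd36 17875323 (0.04) did.

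H3K27ac differed between the lines in 18 of 25 member regions when untreated (7 higher and 11 lower in Nur77 cells), against 30.8% of all regions (15.4% higher, 15.3% lower). After LPS 12 of 25 differed (4 higher, 8 lower), against 36.0% (16.5% and 19.5%). Per kb of called peak 5 differed in each condition, against 14.2% of all regions untreated and 16.9% after LPS, so the length called moved with many of these differences, and its part in them was not tested further. The median log2 difference of the 25 was -0.18 untreated and -0.04 after LPS.

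Lpl had 3 tested H3K27ac regions and all were lower in Nur77 cells in both conditions. Over the start of the span, chr8:68879926-68889976 held 282 and 248 scaled tags in untreated GFP cells, 371 and 366 after LPS, 151 and 160 in untreated Nur77 cells and 115 and 93.9 after LPS. No Nur77 library reached a GFP one. The difference was -0.76 ± 0.10 (adjusted p = 1.8e-04) untreated and -1.82 ± 0.10 (3.5e-07) after LPS. Covered length was 8.10 against 4.53 kb untreated and 9.21 against 4.36 kb after LPS, and per kb the differences were 0.10 (0.654) and -0.70 (0.00145). The other 2 regions, chr8:68902633-68909973 and chr8:68910341-68915681, differed by -1.27 and -1.08 untreated and by -1.44 and -2.14 after LPS, and passed in neither condition per kb. The second of these calls untreated had an adjusted p of 0.0392 and was lost in 6 of 8 fits without 1 library, with 0.171 at the highest. A region 18615 bp beyond the gene, chr8:68925547-68927512, was called in all 4 GFP libraries at 11.5, 14.4, 59.1 and 38.7 scaled tags and in Nur77 cells only in LPS replicate 2 at 6.98.

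Cd36 went the other way at 2 regions. Chr5:17873324-17882369 was higher in Nur77 cells by 1.11 ± 0.07 (adjusted p = 6.6e-07) untreated and 1.00 ± 0.07 (1.1e-06) after LPS, with the values given above. Chr5:17852853-17859308, which holds 2 HA regions, was at 236 and 251 scaled tags in untreated GFP cells, 227 and 228 after LPS, 383 and 386 in untreated Nur77 cells and 397 and 418 after LPS. Its difference was 0.66 ± 0.07 (2.8e-05) untreated and 0.84 ± 0.07 (4.5e-06) after LPS, and it did not pass for LPS in either line. Per kb both regions passed in both conditions (0.73 and 0.83 for the first, 0.48 and 0.70 for the second). The region around the annotated Cd36 start was lower in untreated Nur77 cells (-0.33 ± 0.06, 0.0012; per kb -0.32, 0.0605).

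Abca1 was lower in Nur77 cells over its start, at 236 and 242 scaled tags in untreated GFP and 159 and 141 in untreated Nur77 cells (-0.67 ± 0.12, adjusted p = 0.00136), and at 225 and 190 against 128 and 102 after LPS (-0.85 ± 0.12, 2.4e-04). This passed per kb (-0.46, 0.0278, and -0.58, 0.00728), as did chr4:53148442-53151080, an input-overlapping region at -2.30 and -1.51. Srebf1, Srebf2 and Mylip were higher in untreated Nur77 cells by 0.39, 0.22 and 0.32, and per kb these were -0.06, -0.12 and -0.10 and did not pass. Srebf2 after LPS was at 0.20 with an adjusted p of 0.0498, and 0.054 with the block. Every H3K27ac difference named in the 3 paragraphs on the lines, other than Lpl 68910341 untreated, Srebf2, Mylip untreated and Abca1 53148442 after LPS, passed in each fit without 1 library. Mylip untreated was lost without untreated replicate 2 of either line, with an adjusted p up to 0.083. Abca1 53148442 after LPS was lost without replicate 1 of either LPS group, with up to 0.0742. Srebf2 untreated was lost in 3 of 8 such fits, with up to 0.279, and after LPS in 6 of 8, with up to 0.207.

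Of the other H3K27ac differences between the lines, 1 also passed per kb, that of intergenic Abca1 53179210 untreated. Plin2 was lower in untreated Nur77 cells over the gene (-0.34 ± 0.06, adjusted p = 0.00134; per kb 0.00, 0.997) and at the intergenic region (-0.43 ± 0.07, 8.8e-04; per kb -0.22, 0.25). Mylip was higher after LPS (0.47 ± 0.08, 7.1e-04; per kb 0.04, 0.839). The distal Abca1 region was lower untreated (-0.39 ± 0.10, 0.0116; per kb -0.27, 0.182). Intergenic Abca1 53179210 was lower in both conditions, by -0.55 (0.00547; per kb -0.52, 0.0182) untreated and -0.52 (0.00654; per kb -0.40, 0.0538) after LPS. Intergenic Abcg1 31033148, over input, was at -0.27 (0.0257; per kb -0.24, 0.208) and -0.41 (0.00229; per kb 0.03, 0.887). Over the Abcg1 gene the untreated difference was 0.21 (0.042; per kb 0.18, 0.337), and Abcg1 31086588 was at -1.30 (0.0351; per kb 0.06, 0.767) after LPS. Weak H3K27ac inside Srebf2, chr15:82162652-82166148, held 33.0 and 40.6 scaled tags in untreated Nur77 cells against 6.02 and 20.9 in GFP cells (1.60 ± 0.52, 0.0366; per kb 0.02, 0.958).

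Of these, both Plin2 differences, Mylip and Abcg1 31033148 after LPS passed in each fit without 1 library. Abca1 53114493 and 53179210 untreated were lost without untreated replicate 2 of either line (up to 0.103 and 0.0675), and the latter after LPS without GFP LPS replicate 1 (0.0758). Abcg1 31033148 and 31057161 untreated were lost without any untreated library (up to 0.145 and 0.192). Abcg1 31086588 was lost without either GFP LPS library or Nur77 LPS replicate 2 (up to 0.15), and Srebf2 82162652 without untreated GFP replicate 1 or either untreated Nur77 library (up to 0.325).

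**Figure D4:**
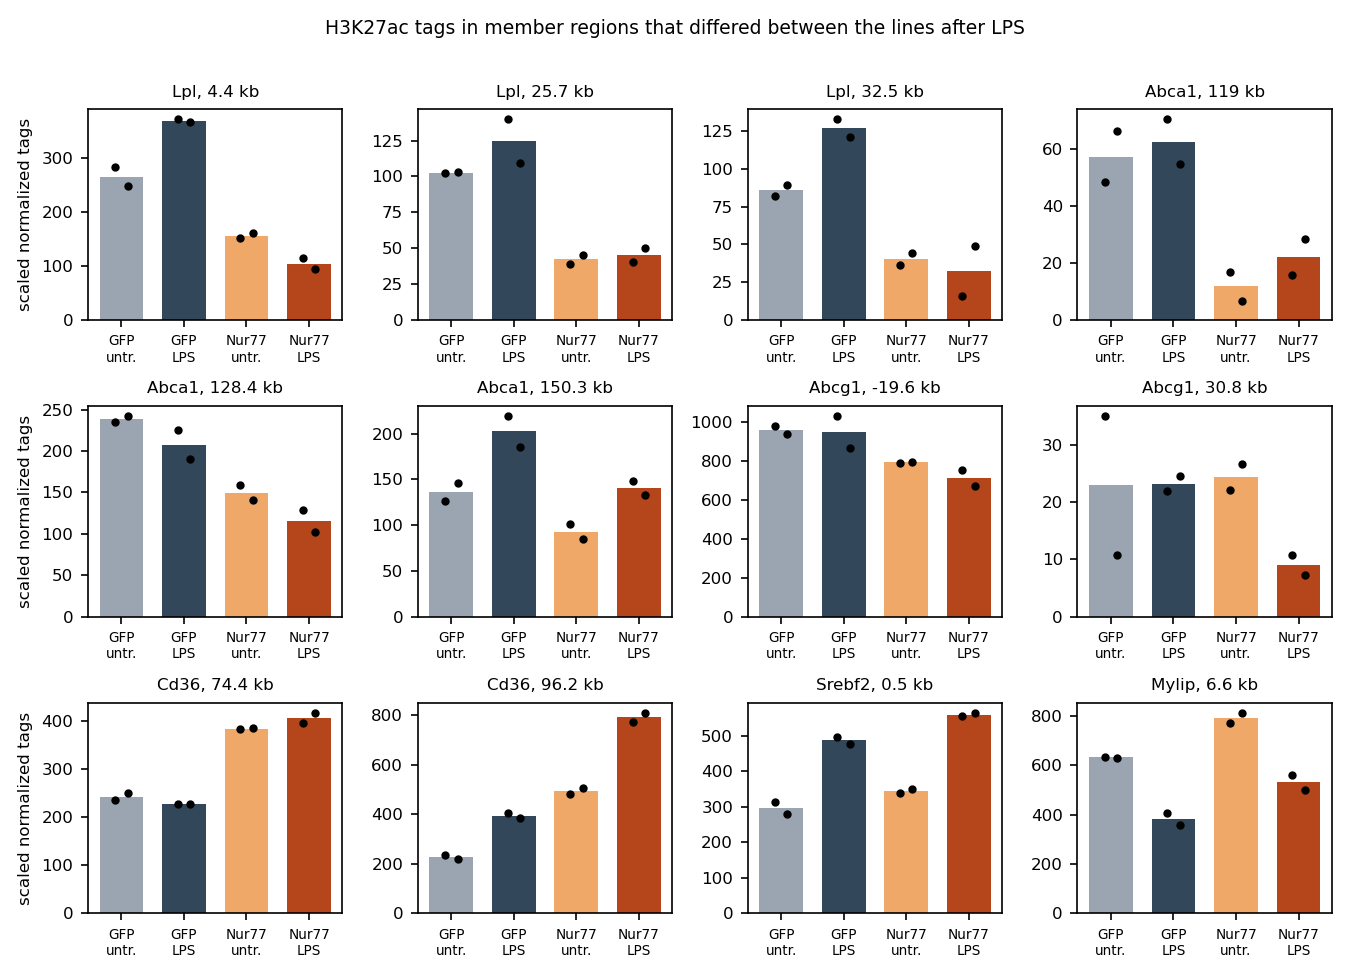
Scaled H3K27ac tags in the 12 member regions whose level differed between the lines after LPS, titled by gene and kb from the low-coordinate end of the gene span; bars are means of 2 libraries and dots the libraries. The 3 Lpl regions are lower in Nur77 cells in both conditions, with 115 and 93.9 against 371 and 366 after LPS at 4.4 kb, and the 2 Cd36 regions are higher.

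The LPS response itself differed between the lines at 1 member region. At Lpl 68879926 H3K27ac rose by 0.48 ± 0.10 (adjusted p = 0.0023) in GFP cells and fell by 0.58 on the log2 scale in Nur77 cells (SE 0.10, 5.6e-04), a difference in response of -1.06 ± 0.15 (0.0154). This was 1 of 25 member regions, against 0.594% of all (0.118% higher, 0.476% lower). Per kb the response was 0.08 in GFP and -0.71 in Nur77 cells and their difference -0.79 (0.222). The call was lost when any of 4 libraries was left out: the second untreated GFP library (-0.96, 0.0912), the first GFP LPS library (-1.03, 0.0715) or either untreated Nur77 library (-1.10, 0.0661, and -1.01, 0.104). For Pol II no region of the 17081 passed (0%), 465 had an unadjusted p under 0.05, and the blocked fit called none either. Among the members, Lpl was at -1.46 ± 0.44 and Cd36 17835325 at 1.18 ± 0.32, each with an adjusted p of 1, so a difference in Pol II response between the lines was not detectable here.

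**Figure D5:**
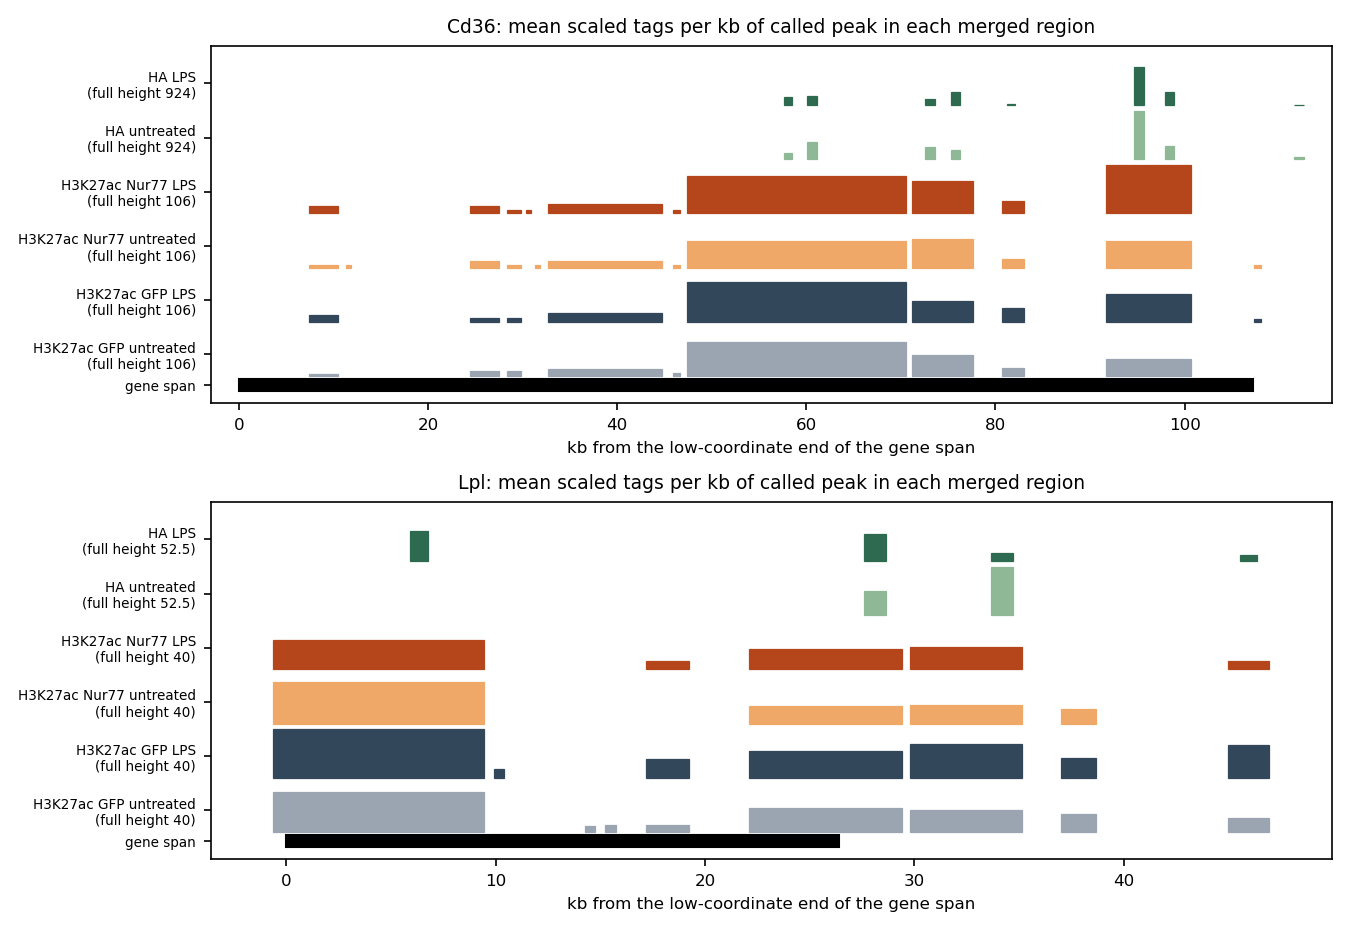
Map of the Cd36 and Lpl loci by distance in kb from the low-coordinate end of the gene span (black bar); blocks are merged regions and their height is the mean over libraries of scaled tags per kb of called peak, with a library without a peak counted as 0, on the scale given at each row. The highest Cd36 HA block stands over the H3K27ac region at 96.2 kb, and Lpl has an HA block inside the gene at 6.3 kb only after LPS.

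Per kb of called peak, lead Pol II regions ranged in untreated GFP cells from 102 ± 22.1 (SD, n = 2) at Mylip through Abca1 (96.3 ± 17.8), Srebf1 (87.6 ± 1.21), Srebf2 (81.5 ± 1.47), Abcg1 (71.7 ± 18.2), Plin2 (62.3 ± 30.7) and Lpl (55.7 ± 10.2) to Cd36 (51.9 ± 8.16), with Apoe called in 1 of 2 libraries. Neighbours in this order lay within 1 SD of each other, other than Srebf1 and Srebf2, leaving Apoe aside. In Nur77 cells after LPS, Mylip (136 ± 55.4) was again first, and Cd36 (83.6 ± 6.30) was above Abcg1 (39.3 ± 5.12) and Lpl (22.7 ± 0.92). Over the 8 Pol II libraries, the genes whose lead region was closest to each member by root-mean-square difference of centred log2 values were Klhl8 for Lpl (0.27), Hal for Abca1 (0.20), Pfkfb3 for Abcg1 (0.13), Fth1 and Best1, which share a region, for Cd36 (0.14), Gm7592 for Plin2 (0.16), Ercc5 for Srebf1 (0.08), Rpl23 for Srebf2 (0.09) and Paip2b for Mylip (0.09). The next closest lay at 0.08 to 0.33. For Cd36 they were Nceh1, a cholesteryl ester hydrolase (0.15), and Gm10863 and Gm52189, which share a region (0.18). Every region has closest genes by this rule, and a link in function was not tested.

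Other genes of lipid handling, 61 in 6 lists, were read at the region with the highest signal. For HA, 2 of 33 tested genes passed, both higher after LPS, a share near the 4.64% of all HA regions. They were Olr1, an oxidized lipoprotein receptor (2.04 ± 0.27, adjusted p = 0.00754), and Ch25h, which makes 25-hydroxycholesterol (1.45 ± 0.32, 0.0323, at a region near the gene). Both calls were lost without untreated replicate 1 and without LPS replicate 1, where no HA region of all 11234 passed. With the block 4 were higher and 7 lower, against 20.4% and 20.0% of all regions. For Pol II, 5 of 54 were higher and 9 lower in GFP cells and 9 higher and 13 lower in Nur77 cells, against 10.0% and 8.55%, and 15.2% and 15.0%, of all regions. With the block these counts were 8 and 16, and 13 and 18, against 18.3% and 17.2%, and 24.3% and 23.6%. Abca7, a transporter whose region also overlaps Arhgap45, was lowest in both (-2.05 ± 0.27 and -3.36 ± 0.27), with Mgll, the monoacylglycerol lipase, at -1.89 and -2.98, and Cxcl16, a scavenger receptor whose region holds 2 other genes, was higher at 1.62 and 1.82. Lipa and Cyp27a1, a lysosomal lipase and an oxysterol-forming enzyme, both over input, were at -1.91 and -1.26 in GFP cells, and Scarb2 and Abca2 at -1.57 and -1.64 in Nur77 cells.

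By list, intracellular cholesterol transport and oxysterols had 3 of 7 tested genes lower and none higher for Pol II in each line, beside the 8.55% and 15.0% of all regions that were lower. Lists of fatty acid synthesis and binding had 1 and 3 of 11 lower and none higher. Sterol sensing and cholesterol synthesis had 2 of 11 higher and none lower in GFP cells and 3 higher and 1 lower in Nur77 cells. The other lists went both ways. Scavenger and lipoprotein receptors had 2 of 7 higher and 1 lower in GFP cells and 2 and 2 in Nur77 cells, lipid storage and hydrolysis 1 of 10 higher and 3 lower, then 3 and 2, and LXR and its partners none of 8 higher and 1 lower, then 1 and 2. The median log2 change over all 54 genes was -0.10 and -0.06, against 0.01 for all regions. For H3K27ac, 13 of 57 genes were higher and 26 lower in GFP cells and 12 higher and 27 lower in Nur77 cells, against the shares of all regions given above. Msr1, the class A scavenger receptor, was higher (1.03 and 0.93) with Cxcl16 (1.17 and 0.98), and Abca7 (-0.79 and -1.24) and Pltp, the phospholipid transfer protein (-0.83 and -0.95), were lower, both in regions shared with other genes. Lipa was at -0.80 in GFP cells and Pparg at -1.11 in Nur77 cells. Sterol sensing and cholesterol synthesis had 4 of 11 higher in each line, with none lower in GFP and 1 lower in Nur77 cells. The other 5 lists had more genes lower than higher in each line. The closest were scavenger and lipoprotein receptors in GFP cells (4 of 7 lower, 3 higher) and LXR and its partners in Nur77 cells (3 of 8 lower, 2 higher). Lipid storage and hydrolysis in Nur77 cells had 7 of 10 lower and 1 higher.

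Between the lines, no list gene passed for Pol II untreated and 1 of 54 after LPS, against 0.170% and 1.52% of all regions. With the block 3 were higher and 2 lower untreated, against 2.71% and 3.27%, and 7 higher and 4 lower after LPS, against 6.48% and 6.29%. Lipe, hormone-sensitive lipase, was the one that passed without the block, higher in Nur77 cells after LPS (1.67 ± 0.20, adjusted p = 0.0305). This call was also lost without GFP LPS replicate 2 and without any Nur77 library, where no Pol II region of all 17081 passed. For H3K27ac, 11 of 57 were higher and 10 lower in untreated Nur77 cells, and 9 higher and 16 lower after LPS, against 15.4% and 15.3%, and 16.5% and 19.5%, of all regions. Ch25h (1.16 and 1.44), Lipe (0.86 and 1.08) and Ppard, a fatty acid-sensing receptor (0.98 and 0.72), were higher, and Npc2, the lysosomal cholesterol carrier (-0.76 and -0.66), and Ncoa1, a nuclear receptor coactivator (-0.79 and -0.99), were lower in both conditions. Fabp5 was at -0.60 untreated and Acsl3 at -1.0 after LPS. The LPS response differed at 1 of 57, against 0.594% of all regions, Abca7 (-0.45 ± 0.08, 0.0376), in the shared region named above. Per kb of called peak this call was lost, as no region of all 27094 passed for the response.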

How the data were processed

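ChIP-seq peak lists of 26 libraries were read, 4 of them input. The submitters' processing notes name HISAT2 2.1.0, HOMER and mm10. In HOMER's files, per the file headers, HA peaks passed an FDR of 0.001 and 4-fold over the local 10 kb, Pol II and H3K27ac regions at a Poisson p of 0.001, and no input was used. The signal is the deposited normalized tag count per 10 M mapped tags. It is not a whole count, so limma 3.58.1 was used in place of the count test that the design would need for counts. Per the file headers the option that turns off local filtering is absent in H3K27ac replicate 1 of untreated GFP, GFP LPS and untreated Nur77 cells. It is present in replicate 2 of these groups and in both Nur77 LPS libraries. Peak calling thus differed between Nur77 LPS and the other groups, and its part in the H3K27ac results was not tested.

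Overlapping peaks (1 bp or more) of all libraries of a target formed 1 region, and tags were summed. Scaling used trimmed means of M-values (30% and 5% trimmed), the test limma with a trend on log2(scaled tags + 1), fitted over all libraries of a target, with Benjamini-Hochberg adjustment over all tested regions at 0.05. The fit was run on simulated data with noise independent between libraries. That setting lacks the pairing by replicate number found for HA and Pol II, so it does not test the fit for paired libraries. Factors were 1.21 to 1.33 for HA replicates 1 and 2 and 0.572 and 0.624 for replicate 3, and for Pol II between 0.88 and 1.24, for H3K27ac between 0.837 and 1.17. Without scaling the median LPS change over all regions was -0.15 and -0.40 for Pol II and -0.32 and -0.33 for H3K27ac in GFP and Nur77 cells, so changes are relative to the median. Tags in peaks give no depth per region, so no counting interval is given.

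Replicate numbers paired the libraries for HA (correlation of deviations between same-numbered libraries 0.48 to 0.83) and Pol II (0.35 to 0.63) and not for H3K27ac (-0.10 to 0.09), and blocked values are printed where they change a call. All tested regions of the 9 genes were named, and of their untested regions, which the rule also covers, those described; the rest are only counted. List genes were named at most 5 per comparison by p, and likeness used 10906 other Pol II lead regions. The members and gene lists were chosen with earlier results of these data known. RefSeq spans carry no exons, so exonic and intronic positions are not given. Alternatives were no scaling, a pseudocount of 10, no peak filter, tags per kb, merging at 100 bp, leaving out the lowest 25% of peaks or regions over input, the gene span alone, the replicate block and each library left out. R 4.3.3 and Python 3.11.15 were used. The result for a marker gene is not reported here.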

Additional observations from a re-analysis of the deposited data

Results flagged for a closer look

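H3K27ac over the start of the Lpl span (from 68879926 on chromosome 8) was singled out because its LPS response differed between the GFP and Nur77 lines by a test of the difference itself. The difference, Nur77 minus GFP, was -1.06 on the log2 scale (SE 0.15, adjusted p = 0.0154, limma). Both Nur77 LPS libraries (115 and 93.9 scaled tags) were below both untreated ones (151 and 160), and both GFP LPS libraries (371 and 366) were above theirs (282 and 248). Mean covered length went from 4.53 to 4.36 kb in Nur77 cells and from 8.10 to 9.21 kb in GFP cells, and its part in the result was not tested beyond the value per kb, -0.79 (0.222). Local filtering was off in both Nur77 LPS libraries and in replicate 2 alone of each other group, and its part was not tested. Pol II over the same gene had a difference of -1.46 with an adjusted p of 1.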

How the results depend on the processing

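Of 121 named region results under 33 settings, 1775 of 2014 values kept their side of the threshold. These include any change of sign where neither fit called the region. With the same sign, 199 lost the call and 18 gained it. The other 22 changed sign with a call in either fit. The member counts that moved by over 1.5 times follow, with the calls over all regions beside them. For HA, where no member passed, 1 did with no filter on peaks (2571 of all 42505 regions passed). It was 4 with the replicate block (4536 of 11234) and 4 with the block and tags per kb (4587 of 11234). It was 3 with the block and without both replicate 3 libraries (3792 of 11234). For Pol II after LPS in GFP cells (3, with 3176 of all 17081 regions), the count was 1 with no filter (4622 of 46133) and per kb (1227 of 17081). It was also 1 without input regions (2397 of 14250) and with the block and per kb together (2504 of 17081). With the block alone it was 5 (6063 of 17081). In Nur77 cells (8, with 5166 of 17081) it was 4 per kb (2086 of 17081) and 5 without input regions (4065 of 14250). Between the lines untreated (0), it was 3 with the block (1022 of 17081). After LPS (2), it was 1 with no scaling (248 of 17081) or a stricter peak threshold (207 of 14568). It was 0 with no filter (101 of 46133) or per kb (30 of 17081), and 5 with the block (2182 of 17081). For H3K27ac between the lines untreated (18), it was 11 with no filter (9326 of all 77715 regions). Per kb it was 5, with the block (3764 of 27094) or without it (3839 of 27094). After LPS (12) it was 5 per kb, with the block (4522 of 27094) or without it (4572 of 27094). The single difference in response (1) was 0 with no filter (6 of 77715). It was 0 per kb, with the block or without it, where no region of all 27094 passed. The sign changes that involved a call are listed here. Per kb, with the block or without it, they included Cd36 17853710 Pol II between the lines after LPS (-0.09). For H3K27ac they included Abcg1 31086588 after LPS in Nur77 cells (0.13). Between the lines untreated, they were Lpl 68879926 (0.10), Plin2 86652407 (0.00), Srebf1 60206730 (-0.06), Srebf2 82143868 (-0.12) and Mylip 45389176 (-0.10). Between the lines after LPS, they were Abcg1 31033148 (0.03), Abcg1 31086588 (0.06) and Srebf2 82143868 (-0.05). With no scaling, H3K27ac in GFP cells after LPS was -0.15 at Cd36 17829073 and -0.01 at Plin2 86652407. The cause of these changes was not tested. With each library left out in turn, member counts ranged from 0 to 1 for HA, where 0 to 595 of all 11234 regions passed. For Pol II member counts ranged from 1 to 2 (GFP cells), 2 to 9 (Nur77 cells), 0 to 0 (lines, untreated), 0 to 1 (lines, LPS) and 0 to 0 (response). Over all 17081 Pol II regions the calls ranged from 1419 to 3117, 2270 to 5015, 0 to 26, 0 to 158 and 0 to 0. For H3K27ac member counts ranged from 9 to 12, 13 to 17, 10 to 18, 9 to 13 and 0 to 2 in the same order. Calls over all H3K27ac regions moved too. Without untreated GFP replicate 1, 5734 of all 27094 differed between the untreated lines, against 8332 with all libraries. For H3K27ac the block changed 1 member call, that of Srebf2 82143868 given above. With no scaling, calls over all regions were 1300 higher and 1893 lower for Pol II in GFP cells (1715 and 1461 with scaling), 1411 and 4669 in Nur77 cells (2602 and 2564), 4053 and 12245 for H3K27ac in GFP cells (7464 and 6903) and 4014 and 12616 in Nur77 cells (7732 and 7332). With 2 libraries a group, the smallest member change after LPS that passed was 0.18 for H3K27ac (Cd36 17829073) and 0.81 for Pol II (Srebf2).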
